A study of Rattus norvegicus with 144 samples.

Results

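The blood of rats killed 24 h after 2000 mg/kg acetaminophen was compared with that of rats killed 24 h after vehicle. The animals were chosen by the time in the array labels and by the dose in a deposited key of animal numbers, and 12 of the 72 animals (24 of the 144 arrays) met the rule. All were male F344/N rats, 10 to 12 weeks old, from which blood RNA was taken. The 6 rats of the 2000 mg/kg group (numbers 1987, 2342, 5402, 5421, 7404 and 9999) received acetaminophen in ethyl cellulose by oral gavage, divided into 2 doses. The 6 rats of the 0 mg/kg group (numbers 2431, 2507, 3565, 5480, 7067 and 8002) received ethyl cellulose alone by the same route. The key writes each dose as mg/kg per day. Each rat was hybridised on 2 two-colour arrays with the dyes exchanged, against a pool of equal amounts of RNA from the vehicle animals of that time. The whole series has doses of 0, 150, 1500 and 2000 mg/kg at 3, 6 and 24 h, with 6 rats in each of 12 groups.

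Acetaminophen is an analgesic that in overdose is oxidised in the liver to a reactive quinone imine, which depletes glutathione and kills hepatocytes. Dying hepatocytes release signals that draw neutrophils and monocytes to the liver, and stress hormones released in illness also change which white cells circulate. Whole blood RNA comes from granulocytes, monocytes, lymphocytes, platelets and young red cells together. A value measured in it can therefore move with the number of cells of a type or with the RNA in each cell, and fewer cells of a type and less RNA per cell cannot be told apart in these samples.

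A value given for an animal is the log2 ratio of that animal over the vehicle pool, as the mean of its 2 arrays. A difference is the mean of the 2000 mg/kg animals minus that of the 0 mg/kg animals, on the log2 scale, with its standard error (SE). Neither the log base nor which dye is on top is given for the deposited ratios. Both were assumed from the format of the numbers, which does not show which dye is on top. Every "higher", "lower" and fold depends on these assumptions. For each of 14678 features (8354 named genes and 6324 probes without a gene name) the difference was tested with limma, fitted over all 72 animals, two-sided, with Benjamini-Hochberg adjustment and a threshold of 0.05. Medians of single arrays lay between -0.00344 and 0.00433 on the log10 scale, and between 5.57% and 17% of an array's values were exactly 0 and were treated as missing. Within 1 dye orientation the arrays of these 12 animals correlated between 0.0713 and 0.606, and no pair was negative. Once the common dye effect was subtracted, an animal's pair of arrays correlated between -0.438 and -0.243 in the 2000 mg/kg rats, as a ratio that follows the dyes gives, and between -0.338 and 0.117 in the 0 mg/kg rats. In vehicle rats 5480 and 8002 that correlation was positive (0.117 and 0.0897). Vehicle rat 7067 stood apart from its group. Its mean over the features that were higher at 2000 mg/kg was 0.27, against -0.32 to -0.11 in the other vehicle rats, and without it the number of features called was 170 in place of 120. Ratios to a pool carry no absolute level, so the label of blood was not checked by the abundance of marker genes.

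At 24 h the blood of the 2000 mg/kg rats had more RNA of some neutrophil and inflammatory genes, namely Serpinb1a, Il1r2, S100a9, Mmp8 and Anxa1, which were 2.46-fold to 3.91-fold higher than in the vehicle rats. The genes that fell were a mixed set led by Cd36, a fatty acid and lipoprotein scavenger receptor, which was 2.01-fold lower. Of the features tested, 120 passed (0.818%), 72 of them higher (0.491%) and 48 lower (0.327%). Named genes made up 71 of the 120, with 45 higher and 26 lower, and the other 49 were probes without a gene name. A change of at least 2-fold was seen in 17 of the features that rose and 3 of those that fell. The median difference over all features was 0.00, and 1461 features had an unadjusted p under 0.05.

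The calls drew on a spread estimated from all 12 groups. When the spread came from the 12 animals alone, 3 features passed (Cd36, Usp15 and 1 unnamed probe, all lower). The differences themselves are the same in that fit, so no direction could change. All 120 had an unadjusted p under 0.05 there, but they had been picked for a small p in these same animals, so this is no separate check. Treated and vehicle animals were separate individuals, so the p-values measure the spread between rats, but as pooled over all 12 groups. At 24 h the median SD over all features was 0.2 in the 0 mg/kg rats and 0.2 in the 2000 mg/kg rats. Across the 12 groups it ran from 0.136 to 0.2. For genes that vary more in these 12 animals than in the other groups, the printed SE and p-values understate the spread between these animals.

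The neutrophil genes gave the clearest group. The list of neutrophil granule and surface genes had 14 members tested, of which 6 were higher, 0 were lower at the threshold and 8 had an unadjusted p under 0.05. Over all features 0.491% were higher and 0.327% lower at the threshold, and 1461 of 14678 had an unadjusted p under 0.05. The counts of the other lists stand against the same shares. Members and lists were chosen with earlier results of these data known, so a count above these shares is a description and not a test. Over the 14 members the median difference was 0.58. Serpinb1a, an inhibitor of neutrophil serine proteases, ranged from 0.73 to 3.43 in the 2000 mg/kg rats with a median of 1.33, against -0.58 to 1.16 with a median of -0.41 in the 0 mg/kg rats. The groups overlapped only through vehicle rat 7067, at 1.16. The difference was 1.97 (SE 0.42, limma adjusted p = 0.00611), and the 2 probes of the gene gave 2.21 and 1.73.

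S100a9, a calcium-binding subunit of calprotectin that fills neutrophil cytoplasm, lay between 0.63 and 3.34 in the 2000 mg/kg rats (median 1.03) and between -0.58 and 0.72 in the 0 mg/kg rats (median -0.26). The treated animals were uneven, since rats 1987 and 5402 reached 3.34 and 2.78 while the other 4 were at or below 1.23. The difference was 1.74 (SE 0.42, limma adjusted p = 0.022), and it missed the threshold when any 1 of treated rats 1987 and 5402 or vehicle rats 2431, 3565 and 8002 was left out. Its partner subunit S100a8 gave 0.66 to 3.55 in the 2000 mg/kg rats (median 1.22) and -0.13 to 0.64 in the 0 mg/kg rats (median 0.15). The groups did not overlap, yet with a difference of 1.48 S100a8 was the member nearest to the threshold on the outside (SE 0.43, limma adjusted p = 0.0898).

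Mmp8, the collagenase stored in neutrophil specific granules, ranged from 0.16 to 3.06 in the 2000 mg/kg rats (median 1.38) and from -0.87 to 0.31 in the 0 mg/kg rats (median -0.10). Again rats 1987 and 5402 were the highest, at 3.06 and 2.68, while rats 2342 and 9999 (0.16 and 0.31) lay within or at the edge of the vehicle range. The difference was 1.64 (SE 0.36, limma adjusted p = 0.00908), and it missed the threshold without rat 1987. Slpi, a secreted inhibitor of leukocyte proteases, was 0.65 to 1.66 in the 2000 mg/kg rats (median 0.90) and -0.49 to 0.80 in the 0 mg/kg rats (median -0.27), where only rat 7067 lay among the treated values. It rose by 1.16 (SE 0.24, limma adjusted p = 0.00589). Pglyrp1, a peptidoglycan-binding granule protein named here after its value was seen, was the sixth member to rise, by 0.72 (SE 0.19, limma adjusted p = 0.0402), and its groups did not overlap.

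Not all neutrophil genes moved. Lcn2 and Mmp9, which encode proteins of the specific and gelatinase granules, had differences of -0.10 and 0.01, and the chemokine receptors Cxcr2 and Cxcr1 had -0.07 and -0.04. These 4 were named after their values were seen. As a mean over its members the neutrophil list lay between 0.23 and 1.43 in the 2000 mg/kg rats (median 0.53) and between -0.26 and 0.31 in the 0 mg/kg rats (median -0.11). Rats 1987 and 5402 had the highest means, at 1.43 and 1.11, and vehicle rat 7067, at 0.31, lay above the lowest treated rat, 9999. The number of members called was 3 without rat 1987, 3 with arrays weighted by quality and 0 when the spread came from the 12 animals alone. It was 1 among animals whose arrays were of the same design, inferred from both arrays lacking some features. Of the 12 rats that setting left out treated rat 5402 alone, and over all groups it left at most 32 residual degrees of freedom. Which of these lowered the number was not tested.

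**Figure D1:**
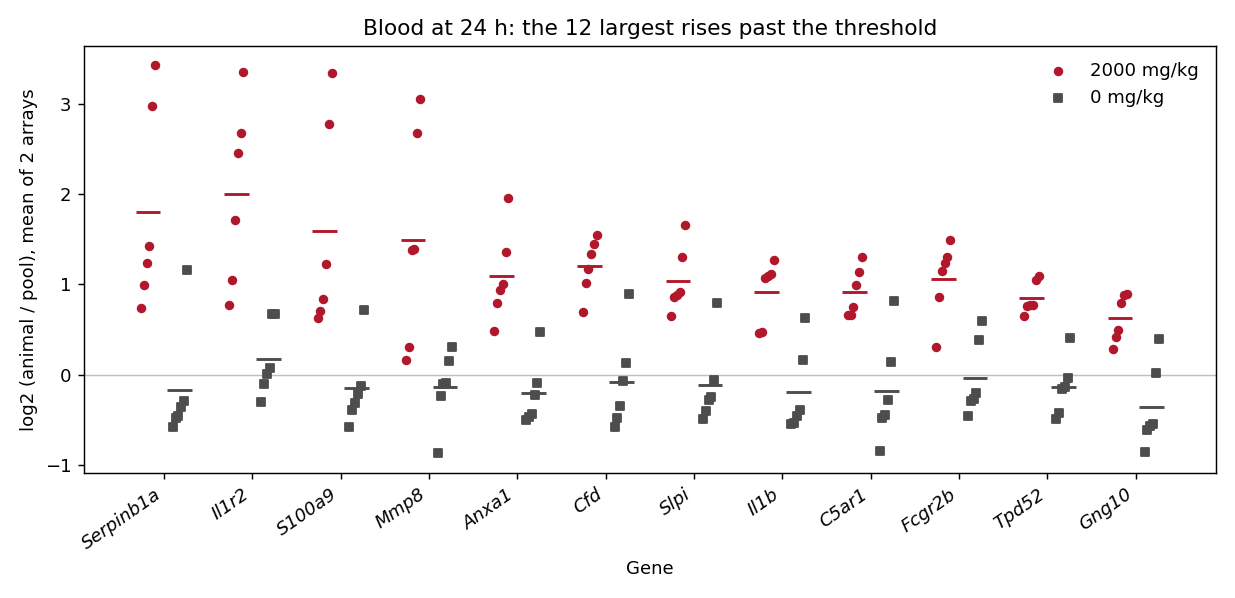
Values of the 12 named genes with the largest rises past the threshold at 24 h. Each point is 1 rat, plotted as the log2 ratio over the vehicle pool (mean of 2 arrays), with 6 rats at 2000 mg/kg (red circles) left of 6 rats at 0 mg/kg (grey squares) and a line at each group's mean. In Serpinb1a, S100a9 and Mmp8 a pair of treated rats stands well above the others, and in most genes the highest vehicle rat reaches toward the treated values.

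The inflammatory signalling list, made up of cytokines, chemokines, their receptors and their regulators, had 38 members tested, with 5 higher, 0 lower at the threshold and 10 with an unadjusted p under 0.05. Its median difference was 0.09. Il1r2, the decoy receptor that binds interleukin 1 without signalling, ranged from 0.77 to 3.35 in the 2000 mg/kg rats with a median of 2.08, against -0.31 to 0.68 with a median of 0.04 in the 0 mg/kg rats. Every treated rat lay above every vehicle rat. The difference was 1.84, or 3.57-fold (SE 0.37, limma adjusted p = 0.00447).

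Its ligand rose as well. Il1b, the cytokine interleukin 1 beta, was 0.46 to 1.27 in the 2000 mg/kg rats (median 1.08) and -0.54 to 0.63 in the 0 mg/kg rats (median -0.43), a difference of 1.10 (SE 0.25, limma adjusted p = 0.0119) that its 2 probes gave as 1.04 and 1.17. Vehicle rat 7067 aside, the vehicle values of Il1b lay below those of the treated rats. The signalling receptor Il1r1 and the antagonist Il1rn, named after their values were seen, differed by -0.04 and -0.18 and did not pass. C5ar1, the receptor through which complement fragment C5a attracts neutrophils, was 0.66 to 1.31 in the 2000 mg/kg rats (median 0.87) and -0.85 to 0.82 in the 0 mg/kg rats (median -0.36). It was higher by 1.10 (SE 0.26, limma adjusted p = 0.0146), a call that was lost without vehicle rat 2431 or treated rat 5421.

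The other members of this list that rose were close to the threshold. Tlr2, the receptor for bacterial lipoproteins, was higher by 0.99 (SE 0.26, limma adjusted p = 0.0487) and the chemokine Ccl6 by 0.74 (SE 0.20, limma adjusted p = 0.0445). Both had overlapping groups. Leaving out 1 animal ended the call of Tlr2 for 8 of 12 animals and that of Ccl6 for 10 of 12. Ccl2, the main monocyte chemoattractant, was nearest to the threshold on the outside, with a difference of 1.67 (SE 0.48, limma adjusted p = 0.0856). Its values ran from -1.04 to 5.0 in the 2000 mg/kg rats (median 0.90), wider than the -0.83 to 0.19 in the 0 mg/kg rats (median -0.15). The list had 5 members higher with all animals, but 2 without vehicle rat 2431 or treated rat 5421, and 3 without treated rat 1987 or vehicle rat 2507, 3565, 5480 or 8002.

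Several classic inflammatory transcripts showed no call in the blood at this time. Tnf, Il10, Ptgs2, Socs3 and Nfkb1, named after their values were seen, had differences between -0.07 and 0.08. Of the interferon response list 0 of 23 members passed with limma (7 had an unadjusted p under 0.05), with a median of 0.06, and the antiviral synthetase Oas1a was nearest to the threshold, at 0.51 (SE 0.14, limma adjusted p = 0.0657). Of the immediate early genes, which answer stimuli within minutes, 0 of 25 passed with limma (9 had an unadjusted p under 0.05), and the median was 0.06. The phosphatase Dusp1 was nearest, at 0.24 (SE 0.07, limma adjusted p = 0.0871).

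Complement and Fc receptor genes gave 4 calls between them, including that of C5ar1 described above. Cfd, the complement protease known as adipsin or factor D, was 0.70 to 1.55 in the 2000 mg/kg rats (median 1.26) and -0.58 to 0.89 in the 0 mg/kg rats (median -0.21). The groups overlapped through vehicle rat 7067, at 0.89. It rose by 1.28 (SE 0.24, limma adjusted p = 0.00155). With C5ar1 it made 2 of the 23 complement and coagulation genes tested, whose median was 0.01, while 8 had an unadjusted p under 0.05.

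Fcgr2b, the inhibitory receptor for immunoglobulin G, ranged from 0.31 to 1.49 in the 2000 mg/kg rats (median 1.2) and from -0.46 to 0.60 in the 0 mg/kg rats (median -0.24), and was higher by 1.10 (SE 0.23, limma adjusted p = 0.00503). Fcgr1a, the high-affinity receptor carried by monocytes, ranged from 0.43 to 0.93 in the 2000 mg/kg rats (median 0.76) and from -0.68 to 0.51 in the 0 mg/kg rats (median -0.33), and was higher by 0.90 (SE 0.18, limma adjusted p = 0.00383). In both genes the groups overlapped, and both calls held when any 1 animal was left out. These were 2 of 14 members of the Fc receptor list, which had a median of 0.15, and the adaptor Tyrobp was nearest to the threshold, at 0.32 (SE 0.11, limma adjusted p = 0.158).

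The monocyte and macrophage list went both ways, with 2 of 16 members higher and 1 lower, and its median was 0.00. Besides Fcgr1a, Lgals3, the lectin galectin 3, was 0.37 to 0.65 in the 2000 mg/kg rats (median 0.50) and -0.25 to 0.34 in the 0 mg/kg rats (median -0.18), with no overlap and a difference of 0.58 (SE 0.11, limma adjusted p = 0.00154). The defining monocyte markers did not pass, with differences of -0.01 for Cd14, 0.49 for Lyz2, -0.39 for Csf1r and -0.44 for Cd68.

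The member that fell was Cd36, which also had the smallest adjusted p among all features. Its values were -1.14 to -0.75 in the 2000 mg/kg rats with a median of -1.09, against -0.36 to 0.26 with a median of 0.07 in the 0 mg/kg rats. The 6 treated rats lay close together, and all were below every vehicle rat. Cd36 fell by 1.01 on the log2 scale (SE 0.15, limma adjusted p = 5.51e-05), and it was still called when the spread came from the 12 animals alone (limma adjusted p = 0.0129). The call was lost when the spread came from the 24 animals of 24 h. It is also a member of the fatty acid oxidation and lipid handling list, where it was the only 1 of 26 members called and the median was -0.08.

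Annexin, S100 and glucocorticoid genes overlapped with those above. Anxa1, a glucocorticoid-induced protein abundant in neutrophils that dampens their recruitment, ranged from 0.48 to 1.96 in the 2000 mg/kg rats with a median of 0.97, against -0.50 to 0.47 with a median of -0.33 in the 0 mg/kg rats. The lowest treated rat, 9999, was just above the highest vehicle rat, 7067. Anxa1 rose by 1.30 (SE 0.27, limma adjusted p = 0.0047). S100a11 rose by 0.29 (SE 0.07, limma adjusted p = 0.0207), with treated values of 0.26 to 0.39 and vehicle values of -0.10 to 0.21, and without overlap. That call was lost without vehicle rat 2431 or 3565 or treated rat 5421, with only the arrays that had the animal in Cy3, and with array weights. These were 2 of the 16 members of the S100 and annexin list, whose median was -0.06. In the glucocorticoid list 2 of 22 members rose, Anxa1 and Il1r2, both of which other lists hold, and the median was 0.08. Fkbp5, Tsc22d3 and Per1, widely used glucocorticoid targets named after their values were seen, had differences of -0.06, 0.00 and 0.00.

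In the other lists no more than 1 member passed in either direction, apart from the adhesion and homing list. The lysosomal list had Cd63, a membrane protein of granules and lysosomes, higher by 0.38 (SE 0.09, limma adjusted p = 0.0112), and the protease Ctsb lower by 0.43 on the log2 scale (SE 0.10, limma adjusted p = 0.0164), with the other 20 of 22 members not called. Ccng1, a p53 target, was higher by 0.65 (SE 0.16, limma adjusted p = 0.0271), 1 of 33 p53 and apoptosis genes. Each of these 3 calls was lost when some 1 animal was left out.

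**Figure D2:**
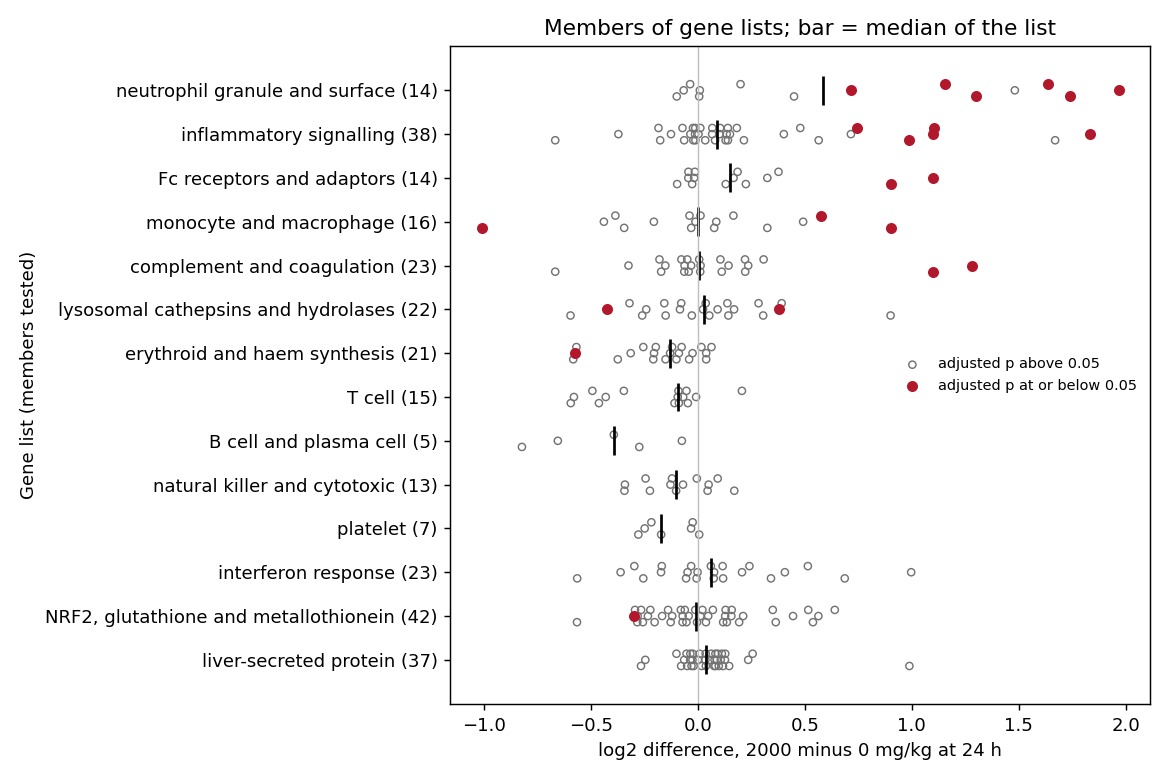
Differences between 2000 and 0 mg/kg at 24 h for the members of 14 gene lists. Each circle is 1 gene, filled red where its limma adjusted p was at or below 0.05, the bar is the median of the list, and the number of members tested stands beside each name. The neutrophil list has its median at 0.58 with 6 filled circles, while the lymphocyte, platelet, interferon and liver lists have none.

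Among leading rises outside the lists, Tpd52, a trafficking protein of leukocytes and epithelia, ranged from 0.65 to 1.09 in the 2000 mg/kg rats (median 0.77) and from -0.49 to 0.41 in the 0 mg/kg rats (median -0.15). The groups did not overlap, and it rose by 0.99 (SE 0.18, limma adjusted p = 0.00115). It was 1 of the 4 features still called when the spread came from the 24 animals of 24 h. Gng10, a gamma subunit of G proteins, ranged from 0.28 to 0.90 in the 2000 mg/kg rats (median 0.64) and from -0.86 to 0.39 in the 0 mg/kg rats (median -0.55), and it rose by 0.99 (SE 0.25, limma adjusted p = 0.0269). That call was lost for 7 of the 12 animals when 1 was left out.

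Further rises chosen after their values were seen were Aqp9, a water and glycerol channel of neutrophils and liver, at 0.86 (SE 0.17, limma adjusted p = 0.00424), and Gpnmb, a glycoprotein of macrophage lysosomes, at 0.71 (SE 0.11, limma adjusted p = 0.000236). Also among them were the transcription factor Ets2 at 0.92 (SE 0.22, limma adjusted p = 0.02) and the mitochondrial outer membrane protein Tspo at 0.64 (SE 0.16, limma adjusted p = 0.0269). Of these, Aqp9 had groups without overlap.

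Promoter letters are shown for 3 of the genes that rose together, Anxa1, Mmp8 and Serpinb1a, because these were the leading rises whose window held a searched motif. The choice was made after the matches were seen. The NF-kB and glucocorticoid receptor strings replaced longer ones after a first search, which had also matched none of the windows of leading rises and falls. Each window is the 250 bases before the annotated start in RefSeq, build GRCr8, printed 5′ to 3′ on the strand of the gene. It was available for 7 of the 12 leading rises and 9 of the 12 leading falls. Motifs were searched on both strands: TTGCNNAA for C/EBP factors, which drive granulocyte genes, GAGGAAGT for ETS factors, GACTTTCC for NF-kB and ACANNNTGT for the glucocorticoid receptor. The strings of different factors share no letters in the windows printed. Capitals mark the matches.
Anxa1 (chr1:227303733-227303982, minus strand): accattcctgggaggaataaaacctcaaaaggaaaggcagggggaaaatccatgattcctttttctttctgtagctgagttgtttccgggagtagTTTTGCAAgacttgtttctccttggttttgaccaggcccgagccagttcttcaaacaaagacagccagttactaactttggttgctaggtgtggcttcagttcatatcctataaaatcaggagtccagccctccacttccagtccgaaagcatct
Mmp8 (chr8:13008640-13008889, plus strand): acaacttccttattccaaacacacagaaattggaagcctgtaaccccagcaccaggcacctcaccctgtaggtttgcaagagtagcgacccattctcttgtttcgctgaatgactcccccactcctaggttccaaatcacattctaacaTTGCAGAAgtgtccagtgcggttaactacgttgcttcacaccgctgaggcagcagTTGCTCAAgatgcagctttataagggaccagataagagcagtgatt
Serpinb1a (chr17:31799196-31799445, plus strand): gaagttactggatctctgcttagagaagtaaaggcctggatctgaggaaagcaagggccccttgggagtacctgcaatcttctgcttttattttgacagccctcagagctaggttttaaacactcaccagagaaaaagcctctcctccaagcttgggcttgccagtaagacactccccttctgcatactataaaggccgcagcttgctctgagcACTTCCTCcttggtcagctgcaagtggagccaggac
The capitals in Anxa1 and Mmp8 are C/EBP strings, 1 in Anxa1 and 2 in Mmp8, and those in Serpinb1a are an ETS string. C/EBP strings stood in 2 of the 7 windows of leading rises, 0 of the 9 of leading falls and 9.22% of all 33469 windows. The ETS string stood in 1 of 7, 0 of 9 and 2.04%, and the NF-kB and glucocorticoid receptor strings stood in 0 of 7, 0 of 9 and 0.911% and 5.81% of all. These are matches of letters in a short window and say nothing of whether a factor binds there.

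The leading falls were smaller than the leading rises, with a median of -0.54 over the 48 features that fell and 0.72 over the 72 that rose. Of the falls, 33 of 48 had groups that did not overlap, against 23 of 72 of the rises. Over all features, groups did not overlap in 48 (0.327%) toward lower and 45 (0.307%) toward higher values in the treated rats. The called features were picked by the values of these same rats, so larger shares among them are built in. Nrp1, a coreceptor for semaphorins and vascular endothelial growth factor, was -1.66 to -0.08 in the 2000 mg/kg rats (median -0.61) and -0.09 to 0.52 in the 0 mg/kg rats (median 0.21). The groups touched at their edges, and Nrp1 fell by 0.91 on the log2 scale (SE 0.20, limma adjusted p = 0.00908). Of its 2 probes, at -1.01 and -0.82, only the first passed alone. Enpp1, an ectoenzyme that makes pyrophosphate, was -1.14 to -0.24 in the 2000 mg/kg rats (median -0.39) and -0.14 to 0.35 in the 0 mg/kg rats (median 0.06). Its groups did not overlap, and it fell by 0.67 on the log2 scale (SE 0.16, limma adjusted p = 0.0146). These were 2 of the 17 members of the adhesion and homing list, whose median was -0.09, and neither was called without treated rat 1987. Enpp1 was also not called without treated rat 5421.

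Kpna1, an importin that carries proteins into the nucleus, was -1.27 to -0.42 in the 2000 mg/kg rats (median -0.73) and -0.22 to 0.36 in the 0 mg/kg rats (median -0.02). It fell by 0.79 on the log2 scale (SE 0.15, limma adjusted p = 0.00154) without overlap. Gda, the guanine deaminase of purine breakdown, was -1.11 to -0.58 in the 2000 mg/kg rats (median -0.70) and -0.35 to 0.14 in the 0 mg/kg rats (median -0.10), again without overlap. It fell by 0.63 on the log2 scale (SE 0.11, limma adjusted p = 0.000948). Usp15, a deubiquitinating enzyme, was -0.64 to -0.31 in the 2000 mg/kg rats (median -0.51) and -0.03 to 0.23 in the 0 mg/kg rats (median 0.10). Its groups did not overlap, and it fell by 0.60 on the log2 scale (SE 0.12, limma adjusted p = 0.00447), a call that held in the fit of the 12 animals alone (limma adjusted p = 0.0168).

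The next falls were of similar size. Cir1, a transcriptional corepressor, fell by 0.79 on the log2 scale (SE 0.16, limma adjusted p = 0.00521), with 2000 mg/kg values of -1.39 to -0.10 and 0 mg/kg values of -0.09 to 0.25. Cmas, which activates sialic acid for glycan synthesis, fell by 0.69 on the log2 scale (SE 0.17, limma adjusted p = 0.0286), although only 1 of its 2 probes (-0.82, against -0.57 for the other) passed alone. Ranbp10, a scaffold protein of the erythroid and megakaryocyte cytoskeleton, fell by 0.68 on the log2 scale (SE 0.16, limma adjusted p = 0.0207). Bcas3, a cytoskeletal protein, fell by 0.58 on the log2 scale (SE 0.12, limma adjusted p = 0.00548). Asns, the asparagine synthetase that amino acid shortage induces, fell by 0.57 on the log2 scale (SE 0.14, limma adjusted p = 0.02). In all 5 of these genes every 2000 mg/kg rat was below every 0 mg/kg rat. Leaving out 1 animal nevertheless ended the call of Cmas for 5 of the 12 animals and those of Ranbp10 and Asns for 4 each.

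**Figure D3:**
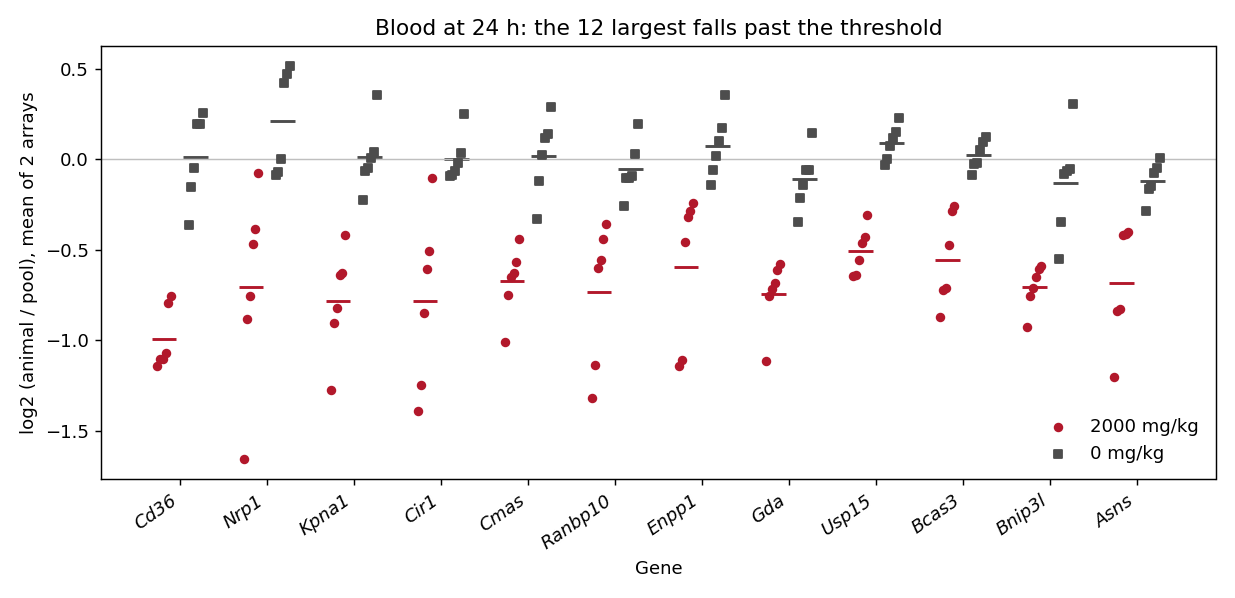
Values of the 12 named genes with the largest falls past the threshold at 24 h. Each point is 1 rat, plotted as the log2 ratio over the vehicle pool (mean of 2 arrays), with 6 rats at 2000 mg/kg (red circles) left of 6 rats at 0 mg/kg (grey squares) and a line at each group's mean. In 11 of the 12 genes all treated rats lie below all vehicle rats, and Nrp1 is the exception.

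The erythroid and haem synthesis list gave 1 call. Bnip3l, the mitophagy receptor with which maturing red cells clear their mitochondria, was -0.92 to -0.59 in the 2000 mg/kg rats (median -0.68) and -0.55 to 0.31 in the 0 mg/kg rats (median -0.07). Its groups did not overlap, and it fell by 0.58 on the log2 scale (SE 0.13, limma adjusted p = 0.0112), a call that was lost without vehicle rat 3565. Of the 21 erythroid and haem synthesis genes tested, 17 had a difference below 0, 9 had an unadjusted p under 0.05 and the median was -0.13. The band 4.1 gene Epb41 was nearest to the threshold, at -0.57 (SE 0.16, limma adjusted p = 0.0735). The erythroid markers Alas2 and Slc4a1 had differences of -0.03 and -0.31 and were not called. As a mean over the list the 2000 mg/kg rats lay between -0.28 and -0.13 (median -0.16) and the 0 mg/kg rats between -0.08 and 0.06 (median 0.00), without overlap. Such means were taken for all 34 lists, and whether they separate the groups was not tested. Blvrb, a biliverdin reductase of red cells kept in the NRF2 and glutathione list, fell by 0.30 on the log2 scale (SE 0.08, limma adjusted p = 0.0372) as 1 of 42 members of that list. That call was lost for 7 of the 12 animals when 1 was left out. Gclm, a subunit of the enzyme that starts glutathione synthesis, was nearest to the threshold, at -0.29 (SE 0.08, limma adjusted p = 0.0661), and the NRF2 targets Hmox1 and Nqo1, named after their values were seen, had differences of 0.02 and 0.36.

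Lymphocyte and platelet genes gave no call. With limma 0 of 15 T cell genes passed (2 with an unadjusted p under 0.05), and 14 of them had a difference below 0, with a median of -0.09. The markers Cd3e, Cd3d, Cd5 and Lck had differences of -0.09, -0.01, -0.49 and -0.59. Of the B cell and plasma cell genes 0 of 5 passed with limma (1 with an unadjusted p under 0.05), and the median was -0.39. Jchain, the joining chain of secreted antibodies, was nearest, at -0.82 (SE 0.32, limma adjusted p = 0.303), and Ms4a1 and Cd79b had -0.07 and -0.27. The treated rats were wide apart in these lists, since the list mean of T cell genes ran from -0.82 to 0.22 at 2000 mg/kg and from -0.27 to 0.08 at 0 mg/kg. For the natural killer list 0 of 13 passed with limma (0 with an unadjusted p under 0.05; median -0.10) and for the platelet list 0 of 7 (1 with an unadjusted p under 0.05; median -0.17).

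RNA made in the liver did not show a call either. Of 37 liver-secreted protein genes 0 passed with limma (1 with an unadjusted p under 0.05), and the median was 0.04. The markers Apoa1, Ttr and Fgb had differences of 0.02, 0.15 and 0.08, and transferrin, Tf, was nearest to the threshold at 0.99 (SE 0.31, limma adjusted p = 0.124). Of 26 drug metabolism genes 0 passed (2 with an unadjusted p under 0.05), and the median was 0.01.

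Housekeeping lists gave no call for ribosomal proteins, oxidative phosphorylation or the proteasome. In the ribosomal protein list 41 of 47 members had a difference below 0, with a median of -0.11 and 0 calls with limma (0 with an unadjusted p under 0.05). For oxidative phosphorylation 38 of 51 were below 0 (median -0.10, 0 calls, 6 with an unadjusted p under 0.05), and for the proteasome 31 of 35 (median -0.09, 0 calls, 2 with an unadjusted p under 0.05). The treated rats did not share a direction. The mean over the ribosomal list ran from -0.49 to 0.29 in the 2000 mg/kg rats, where rats 2342 and 9999 (0.29 and 0.18) lay above every vehicle rat, and from -0.18 to 0.08 in the 0 mg/kg rats. Rat 2342 was also above every vehicle rat for oxidative phosphorylation (0.14, against a highest vehicle value of 0.04) and for the proteasome (0.13, against 0.11). Members of a list were measured in the same animals, so these counts of signs carry no test. Among translation factors Eif4g3 was called, 1 of 27, and fell by 0.43 on the log2 scale (SE 0.10, limma adjusted p = 0.0226), but its 2 probes disagreed, at -0.86 and 0.00, and the call was lost for 4 of the 12 animals when 1 was left out. In the remaining lists tested (NADPH oxidase, antigen presentation, hypoxia and glycolysis, heat shock, cell cycle, actin cytoskeleton, circadian and splicing genes) limma called 0 members, with between 0 and 3 members a list at an unadjusted p under 0.05 and medians of -0.13 to 0.06. The unfolded protein list had Asns as its only call among 22.

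A further question was whether the 24 h profile differed from the earlier ones. Against the vehicle rats of the same time, the 2000 mg/kg rats differed in 1355 features (9.23%) at 3 h, 1354 (9.22%) at 6 h and 120 (0.818%) at 24 h. At 3 and 6 h 1221 (8.32%) and 1213 (8.26%) of these were lower and 134 (0.913%) and 141 (0.961%) higher, and at 24 h 72 were higher and 48 lower. Which direction held the majority at 24 h depended on the animals and the control: 44 were higher and 46 lower without vehicle rat 3565, 665 higher and 734 lower against the pool, and 1 higher and 3 lower when the spread came from the 24 animals of 24 h. The difference at 24 h minus that at 6 h passed for 538 features (3.67%), 441 of them toward higher (3%) and 97 toward lower values at 24 h (0.661%). For 24 h minus 3 h it passed for 2.73% of features, 344 toward higher (2.34%) and 57 toward lower values (0.388%). Of the 72 features that were higher at 24 h, 33 passed the test against 6 h and 54 that against 3 h, and of the 48 that were lower, 12 and 24 did. These features were picked by the 24 h difference, which also enters both tests between times. Their counts are therefore no separate check and cannot be set against the shares over all features.

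Most leading rises had been low or flat at the earlier times. The difference of C5ar1 was -1.99 at 3 h (limma adjusted p = 6.85e-07), -0.51 at 6 h and 1.10 at 24 h, and 24 h minus 3 h was 3.09 (limma adjusted p = 7.25e-08). For Il1b the differences were -1.37, -0.08 and 1.10 at 3, 6 and 24 h, and for Fcgr2b -1.32, -0.53 and 1.10. Both passed the tests of 24 h against 3 h (2.48 and 2.41) and against 6 h (1.18 and 1.63). Anxa1 gave -0.95, 0.03 and 1.30, and it also passed both tests (2.25 against 3 h and 1.27 against 6 h). S100a9 gave -0.64, 0.19 and 1.74 and passed the test against 3 h alone (2.38). These genes were thus called lower or not called at 3 h and higher at 24 h.

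Il1r2 and Serpinb1a were already higher at 6 h. The difference of Il1r2 was 0.71 at 3 h, 2.0 at 6 h (limma adjusted p = 0.000665) and 1.84 at 24 h, and that of Serpinb1a was -0.46, 1.30 (limma adjusted p = 0.0348) and 1.97. For Il1r2 24 h minus 6 h was -0.16 (SE 0.52) and did not pass. Cd36 differed from vehicle at 24 h alone of the 3 times, with differences of -0.04 at 3 h, -0.01 at 6 h and -1.01 at 24 h. Both of its tests between times passed, at -0.97 against 3 h (limma adjusted p = 0.00242) and -1.0 against 6 h (limma adjusted p = 0.00262). Gda likewise passed both, at -0.78 against 3 h and -0.59 against 6 h.

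**Figure D4:**
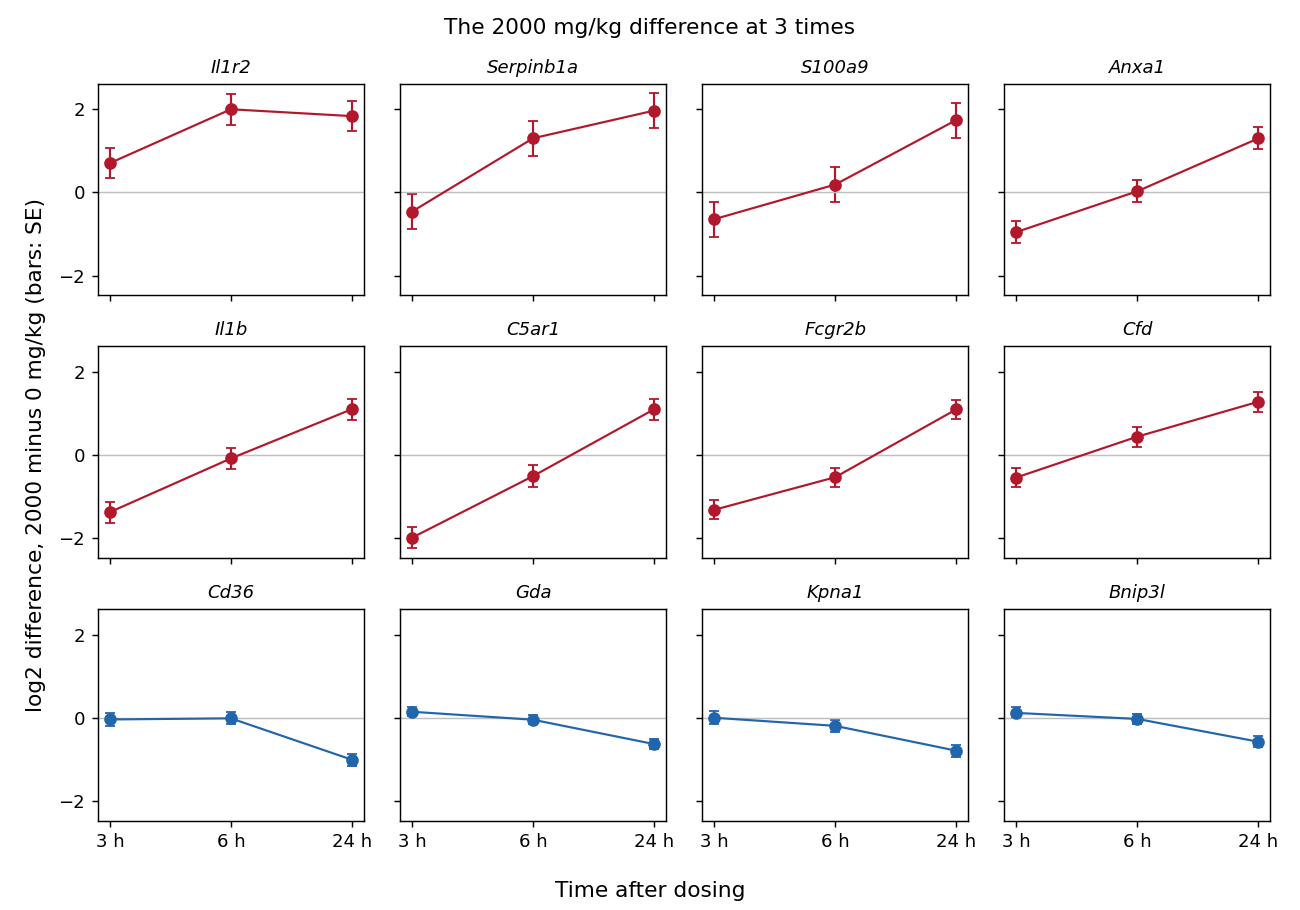
The difference between 2000 and 0 mg/kg (log2 scale, vertical axis) at 3, 6 and 24 h for 8 genes that rose at 24 h (red) and 4 that fell (blue), with bars of 1 SE and 6 rats per dose and time. C5ar1 runs from -1.99 at 3 h to 1.10 at 24 h, Il1r2 is near 2 at both later times, and Cd36 is near 0 until 24 h.

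The 4 named genes with the largest upward changes against 3 h, C5ar1 (3.09), Il1b (2.48), Serpinb1a (2.43) and Fcgr2b (2.41), were all called at 24 h itself. The 4 with the largest upward changes against 6 h were not. Bcl2a1, an antiapoptotic protein of granulocytes, differed by -1.76 at 3 h, -1.45 at 6 h and 0.59 at 24 h (limma adjusted p = 0.291 at 24 h), and the tests between times gave 2.04 against 6 h and 2.36 against 3 h. B4galnt4, Frmd6 and Mab21l2 had the other largest upward values against 6 h, at 2.08, 1.98 and 1.90, and their 24 h differences of 0.70, 0.71 and 0.81 did not pass. The largest downward values besides Cd36 were Gnat2 (-1.38), Tas2r110 (-1.0) and Ppp4r2 (-0.93) against 6 h and Cadps (-1.33), Nabp2 (-1.26) and Col4a3 (-0.85) against 3 h. Their 24 h differences lay between -0.76 and -0.31 and did not pass.

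The last question was how 2000 mg/kg compared with the next lower dose at this time. The test of 2000 against 1500 mg/kg at 24 h called 0 of 14678 features with limma, while 506 had an unadjusted p under 0.05. The 1500 mg/kg rats differed from the same vehicle rats in 178 features (1.21%), 124 higher (0.845%) and 54 lower (0.368%), and since both doses share those vehicle rats their differences are only set side by side. For Il1r2 the difference from vehicle was 1.84 at 2000 mg/kg and 1.88 at 1500 mg/kg. In the same order of doses it was 1.74 and 2.47 for S100a9, 1.28 and 1.26 for Cfd, -1.01 and -1.08 for Cd36, and -0.63 and -0.59 for Gda. The interval of a difference between these doses is wide in genes with uneven animals, so that for S100a9 2000 minus 1500 mg/kg was -0.73 (SE 0.42).

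The spread between rats was narrower at 2000 than at 1500 mg/kg in some genes that fell. Cd36 had an SD of 0.17 over the 6 rats at 2000 mg/kg and 0.61 over the 6 at 1500 mg/kg, and Bnip3l 0.12 at 2000 mg/kg and 0.39 at 1500 mg/kg, a contrast for which no test was run. Means at 0, 150, 1500 and 2000 mg/kg were 0.17, -0.02, 2.05 and 2.0 for Il1r2 and 0.01, -0.13, -1.07 and -0.99 for Cd36.

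**Figure D5:**
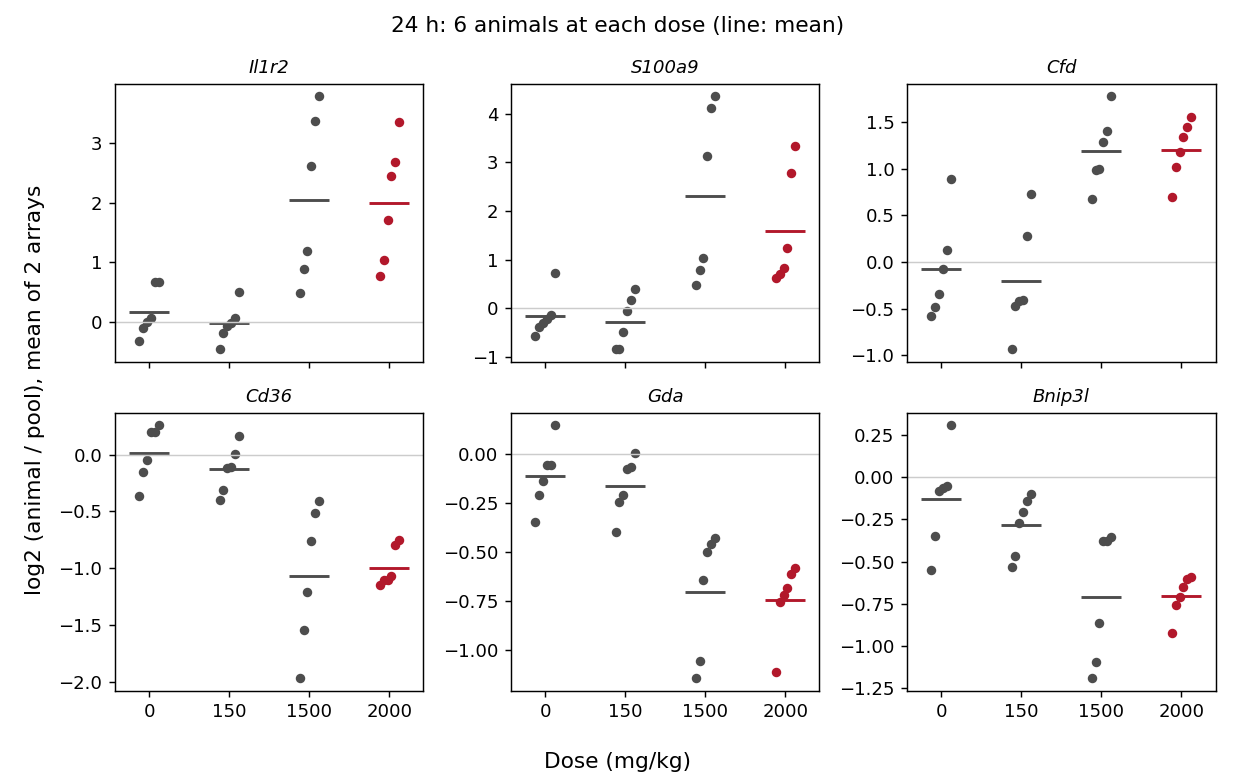
Values of 6 genes in single rats at 24 h (log2 ratio over the vehicle pool, vertical axis) by dose of 0, 150, 1500 and 2000 mg/kg, with 6 rats a dose, a line at each mean and 2000 mg/kg in red. The rats at 0 and 150 mg/kg lie at similar levels, and the means at 1500 and 2000 mg/kg lie away from them. All 2000 mg/kg rats lie outside the 0 mg/kg range except in S100a9 and Cfd, and all 1500 mg/kg rats do so in Cd36 and Gda alone of the 6 genes.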

How the data were processed

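The authors deposited a table of 22075 features as processed ratios, taken here as log10 of Cy5 over Cy3. How the ratios were scaled, centred and signed is not given in the sources used here. Of the features, 500 had no value on part of the arrays (91 of 144 arrays lacked features), and dropping them left 21575. Array design was inferred from whether an array lacked such features. Doses come from the deposited key, where 19 numbers lacked their outer zeros and all 72 times matched the labels. Ratios were re-expressed as log2 (animal over pool), exact zeros were left out, the 2 arrays of an animal were averaged, and the probes of 1 symbol (12750 probes) were averaged per gene. Features with values in fewer than 4 of the 6 animals of any group were dropped. Differences were tested with limma 3.58.1 (R 4.3.3) in 1 fit of 12 group means (60 residual and 2.37 prior degrees of freedom). The fit was also run on simulated data, in which a feature had the same SD in all 12 groups. That run cannot show how a spread that differs between groups affects the calls. Statmod 1.5.0 served the random block, and Python 3.11.15, pandas 2.3.3 and matplotlib 3.10.9 the tables and figures. Precision is set by how many rats and arrays there are.

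Named were the 12 largest rises and falls called with a value in every animal, up to 5 called members of each of 34 gene lists with the member nearest outside the threshold, cell type markers, and the 4 largest changes each way between times. Members and lists were chosen with earlier results of these data known. Alternatives were the animals in the fit, zeros, single arrays, centring, scaling, dye orientation, array design, array weights, moderation, filters, a 1.5-fold test, the pool as control and leaving out each animal. List counts under these settings were added after the data were seen.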

Additional observations from a re-analysis of the deposited data

Results flagged for a closer look

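In 9 of 92 groups of 6 animals examined (named genes and 2 summary means) 1 animal lay apart from the other 5, where chance gives about 1 group in 20. At 2000 mg/kg rat 5421 was the lowest for Gda (-1.11) and for Blvrb (-0.77). At 0 mg/kg rat 7067 was the highest for Serpinb1a (1.16), S100a9 (0.72), Slpi (0.80) and Lgals3 (0.34) and for the mean over the features that were higher at 2000 mg/kg (0.27). Also at 0 mg/kg, rat 8002 was the highest for Cir1 (0.25) and rat 5480 the lowest for Frmd6 (-1.65). Rat 7067 accounts for 5 of the 9, and these genes were measured in the same blood.

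The 2000 mg/kg difference itself differed between times, by the limma test of the difference, in 37 of 68 gene and time pairs examined. For 24 h minus 6 h, upward values were 1.27 for Anxa1, 1.18 for Il1b, 1.61 for C5ar1, 1.63 for Fcgr2b, 1.34 for Tpd52, 1.41 for Gng10, 2.08 for B4galnt4, 2.04 for Bcl2a1, 1.98 for Frmd6 and 1.90 for Mab21l2. Downward values were -1.0 for Cd36, -0.59 for Gda, -1.38 for Gnat2, -1.0 for Tas2r110, -0.93 for Ppp4r2 and -0.90 for Col4a3. For 24 h minus 3 h, upward values were 2.43 for Serpinb1a, 2.38 for S100a9, 2.25 for Anxa1, 1.82 for Cfd, 1.62 for Slpi, 2.48 for Il1b, 3.09 for C5ar1, 2.41 for Fcgr2b, 1.84 for Tpd52, 2.18 for Gng10, 1.43 for B4galnt4 and 2.36 for Bcl2a1. Downward values were -0.97 for Cd36, -0.79 for Kpna1, -0.78 for Gda, -0.69 for Usp15, -0.59 for Bcas3, -0.69 for Bnip3l, -1.33 for Cadps, -1.26 for Nabp2 and -0.85 for Col4a3. The genes of largest change were chosen on these same tests, and the leading rises and falls on the 24 h difference that enters them.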

How the results depend on the processing

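The count of 120 features for 2000 against 0 mg/kg was 3 with the 12 animals alone, 4 with the 24 animals of 24 h, 271 with single arrays and the animal as a random block, 66 with only the arrays in Cy5, 79 with animals of 1 array design, 61 with array weights, 0 in the test of a change over 1.5-fold (31 at an unadjusted p under 0.05) and 1399 against the pool. The fits on the 12 and the 24 animals have 10 and 20 residual degrees of freedom in place of 60. The 2 groups compared also have a median SD of 0.2 each, at the top of the range of 0.136 to 0.2 over the 12 groups. Which of these lowered the count, and why other settings moved it, was not tested. Leaving out 1 animal gave 71 (without 5421) to 170 (without 7067). All the features called that could be tested kept their direction in each of these settings. The fits on the 12 and the 24 animals and the 1.5-fold test use the same differences, so there the direction could not change. For 24 h minus 6 h (538) single arrays gave 917, scaled arrays 354, 1 array design 1050 and array weights 1379, and leaving out 1 animal 330 (without 9999) to 981 (without 5402). For 24 h minus 3 h single arrays gave 811, 1 array design 259 and array weights 1604, and leaving out 1 animal 271 (without 3 h vehicle rat 6370) to 827 (without 5402). For 1500 against 0 mg/kg (178) single arrays gave 293 and array weights 89, and leaving out 1 animal 101 (without 0861) to 272 (without 3046). For 2000 against 1500 mg/kg all settings gave 0. No named gene reversed. No paired analysis was possible because no animal or replicate number is shared between the groups.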
